A study of Danio rerio with 15 samples.

Results

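The zebrafish dorsal organizer genes chrd (ENSDARG00000006110), gsc (ENSDARG00000059073) and noto (ENSDARG00000021201) were followed across 15 samples. They are 3 of the 32520 genes in the deposited table, chosen by Ensembl gene ID as known organizer genes downstream of maternal Wnt signalling, and all 3 passed the filter on low counts that kept 21614 genes. A reference table of gene names gives the same names to the 3 IDs. RNA was taken from pools of 10 embryos at 50% epiboly, an early gastrula stage, with 3 samples in each of 5 groups. The groups were axin2-/-;nkd1-/- double mutants, axin2-/- mutants made with Cas9 in the TL strain, nkd1-/- mutants made with Cas9 in the Tu strain, and unmutated TL and Tu embryos. The double mutants came from crossing the 2 mutant lines, so they carry both backgrounds. Within a group, the collections were made on separate days from a shared set of parents. The spread between them is thus a spread between collections of 1 family, and a difference between groups can be one of genotype or of family.

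The dorsal organizer is the signalling centre of the gastrula that patterns the back of the embryo and the neural plate. In zebrafish it is set up by maternal Wnt signalling: beta-catenin accumulates in dorsal nuclei and turns on the first dorsal genes, and Nodal signals then maintain them. chrd encodes Chordin, a secreted protein that binds BMP ligands and keeps them from their receptors on the dorsal side. gsc encodes Goosecoid, a homeodomain repressor of the organizer and prechordal plate. noto encodes a homeodomain factor that the notochord needs, also known as floating head. Axin2 and Nkd1 are feedback inhibitors of Wnt signalling.

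Libraries held between 44098543 and 68135442 counts. Each of the 3 genes had at least 1927 counts in every sample, so the counting error of a single value was at most 2.28%, below the spread between replicates in all cases but noto in Tu. Levels are given as CPM, a gene's count scaled to its library's total. The differences are log2 fold changes of edgeR's quasi-likelihood test, fitted to all 15 samples and called at an adjusted p under 0.05 over all genes tested. The targeted genes were not lower in their own mutants: axin2 ran from 99.65 to 109.5 CPM in the double mutant, from 85.38 to 100.6 CPM in axin2-/-, from 81.05 to 92.66 CPM in nkd1-/-, from 62.62 to 72.89 CPM in TL and from 58.28 to 66.88 CPM in Tu. nkd1 ran from 21.23 to 25.93 CPM in the double mutant, from 15.52 to 27.22 CPM in axin2-/-, from 18.56 to 24.11 CPM in nkd1-/-, from 14.19 to 16.56 CPM in TL and from 11.30 to 12.94 CPM in Tu. Gene totals do not show whether a transcript carries the edit, so the genotype labels were not checked by them.

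chrd was highest in the 2 groups that lack axin2. It measured 313.0, 357.0 and 301.7 CPM in the double mutant. It measured 300.9, 349.0 and 299.6 CPM in axin2-/-, and 206.8, 265.7 and 293.9 CPM in nkd1-/-. In the unmutated strains it measured 233.7, 245.5 and 236.5 CPM in TL and 250.9, 274.9 and 265.3 CPM in Tu. Every double mutant and axin2-/- sample lay above every nkd1-/-, TL and Tu sample. The lowest axin2-/- sample and the highest nkd1-/- sample were close, at 299.6 and 293.9 CPM. With TMM-scaled library sizes they were at 292.5 and 291.4 CPM. Of the differences between these groups, only those of the double mutant and axin2-/- from TL passed the test. How many of all genes tested separate groups without overlap was not counted, here or below. nkd1-/- had the widest spread, with a coefficient of variation of 17.4%, against 2.58% in TL and 4.58% in Tu, and its replicate 1 was the lowest of all 15 samples. The group means were 323.9 ± 29.2 CPM in the double mutant (SD, n = 3), 316.5 ± 28.2 CPM in axin2-/-, 255.5 ± 44.5 CPM in nkd1-/-, 238.6 ± 6.15 CPM in TL and 263.7 ± 12.1 CPM in Tu.

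gsc varied least, by 1.37-fold between its highest and its lowest sample. It measured 50.26, 45.38 and 42.65 CPM in the double mutant. It measured 49.55, 53.71 and 47.04 CPM in axin2-/-, and 49.82, 41.82 and 51.66 CPM in nkd1-/-. In the strains it measured 40.40, 43.28 and 39.14 CPM in TL and 45.84, 44.99 and 42.37 CPM in Tu. The axin2-/- samples lay above those of both strains, and the samples of the other mutants overlapped both strains. With TMM-scaled library sizes the 3 nkd1-/- samples, from 45.13 to 51.21 CPM, lay above those of both strains, and the double mutant samples, from 43.79 to 50.82 CPM, lay above those of TL. The means were 46.1 ± 3.86 CPM in the double mutant (SD, n = 3), 50.1 ± 3.37 CPM in axin2-/-, 47.8 ± 5.23 CPM in nkd1-/-, 40.9 ± 2.12 CPM in TL and 44.4 ± 1.81 CPM in Tu.

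noto was lowest in the 2 groups that lack nkd1. It measured 47.06, 46.03 and 48.93 CPM in the double mutant. It measured 65.77, 55.68 and 65.90 CPM in axin2-/-, and 44.73, 36.87 and 44.76 CPM in nkd1-/-. In the strains it measured 49.30, 52.90 and 54.74 CPM in TL and 64.94, 66.40 and 65.40 CPM in Tu. Every double mutant and nkd1-/- sample lay below every axin2-/-, TL and Tu sample, although the highest double mutant sample and the lowest TL sample were close. With TMM-scaled library sizes the double mutant, from 46.52 to 50.24 CPM, overlapped TL, from 46.58 to 54.17 CPM. The means were 47.3 ± 1.47 CPM in the double mutant (SD, n = 3), 62.5 ± 5.86 CPM in axin2-/-, 42.1 ± 4.55 CPM in nkd1-/-, 52.3 ± 2.77 CPM in TL and 65.6 ± 0.747 CPM in Tu.

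**Figure D1:**
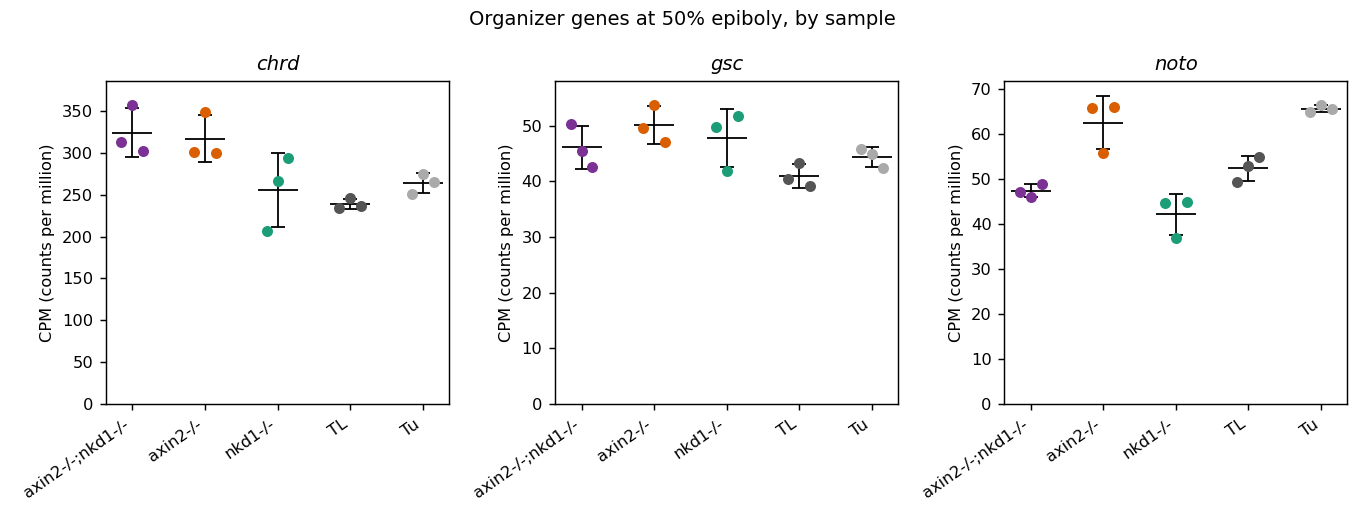
CPM of chrd, gsc and noto (vertical axes, from 0) in each sample of the 5 groups (horizontal axes); points are samples, the horizontal bar is the group mean and the whiskers are 1 SD of 3 samples. chrd stands highest in the double mutant and axin2-/-, at 299.6 CPM or more, noto stands lowest in the double mutant and nkd1-/-, at 48.93 CPM or less, and gsc stays between 39.14 and 53.71 CPM.

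The order of the group means differed between the genes, and neighbours in it did not pass the test in any of them. For chrd it was the double mutant, axin2-/-, Tu, nkd1-/- and TL, and no pair of neighbours passed the test (adjusted p between 0.153 and 0.839 by edgeR). For gsc it was axin2-/-, nkd1-/-, the double mutant, Tu and TL, and no neighbours passed it (adjusted p between 0.267 and 0.88 by edgeR). For noto it was Tu, axin2-/-, TL, the double mutant and nkd1-/-, again with no neighbours past it (adjusted p between 0.0653 and 0.54 by edgeR), though axin2-/-, TL, the double mutant and nkd1-/- did not overlap with one another in CPM. Of all 10 pairs of groups, 6 differed in noto, 2 in chrd and 1 in gsc. The background to these counts is wide differences between all groups: the share of all genes tested that were called was 38.6% for the double mutant against axin2-/-, 11.5% against nkd1-/-, 34.8% against TL and 36.4% against Tu. It was 21.2% for axin2-/- against TL, 37.3% against nkd1-/- and 35.6% against Tu, 29.3% for nkd1-/- against Tu and 35.3% against TL, and 31.1% for TL against Tu.

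Loss of axin2 was set against TL, the strain in which the mutation was made. chrd and gsc were higher in axin2-/- than in TL embryos and noto did not pass the test. In that comparison 10.6% of all genes tested were called higher and 10.6% lower. chrd was 1.35-fold higher (log2 fold change 0.43 ± 0.13 (SE), adjusted p = 0.0219 by edgeR). gsc was 1.24-fold higher (0.32 ± 0.11, adjusted p = 0.0429 by edgeR). noto was 1.21-fold higher (0.28 ± 0.10) and was not called, with an adjusted p of 0.0653 by edgeR. In each gene all 3 axin2-/- samples lay above the TL samples. How many of all genes tested separate in this way was not counted. These are modest differences: the median absolute log2 fold change of the genes called there was 1.15. They lie near the threshold. The call of chrd was lost without TL replicate 1 (0.39, adjusted p = 0.0806 by edgeR), TL replicate 3 (0.43, 0.0634) or axin2-/- replicate 2 (0.34, 0.110). That of gsc was lost without TL replicate 1 (0.28, 0.140), 2 (0.36, 0.0556) or 3 (0.29, 0.143) and without axin2-/- replicate 1 (0.32, 0.0755) or 2 (0.24, 0.183), with no filter on low counts (0.31, 0.0927) and with only the compared groups fitted (0.31, 0.0739). noto passed the threshold with DESeq2 (0.27, 0.0334) and without axin2-/- replicate 2 (0.34, adjusted p = 0.0488 by edgeR). With Tu as control instead, none of the 3 genes passed the test in axin2-/-. There chrd was at 0.24 ± 0.13 (adjusted p = 0.153 by edgeR), gsc at 0.15 ± 0.11 (0.28) and noto at -0.095 ± 0.10 (0.502).

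Loss of nkd1 was set against Tu. noto fell in nkd1-/- embryos, to 0.64 of its level in Tu (log2 fold change -0.64 ± 0.10 (SE), adjusted p = 0.000193 by edgeR), and all 3 nkd1-/- samples lay below all 3 Tu samples. In that comparison 14.4% of all genes tested were called higher and 14.8% lower, and 36.8% of the genes tested had a larger absolute change than noto. chrd and gsc did not pass the test. The log2 fold change of chrd was -0.04, with a 95% interval from -0.31 to 0.23 (adjusted p = 0.839 by edgeR), and that of gsc was 0.10, from -0.12 to 0.33 (adjusted p = 0.506 by edgeR). The fall of noto held in all 6 fits that left out a sample, between -0.68 and -0.60. TL and Tu also differed in noto, which was lower in TL, so the size of the fall depends on the strain taken as control: against TL it was -0.27 ± 0.10 (adjusted p = 0.0477 by edgeR), a call that was lost without TL replicate 2 or 3 or any nkd1-/- replicate (between -0.31 and -0.23, adjusted p from 0.0605 to 0.156), with no filter (0.091) and with only the compared groups fitted (0.0848). Against TL gsc was at 0.26 ± 0.11 (adjusted p = 0.063 by edgeR), and it passed the threshold with DESeq2 (0.26, adjusted p = 0.0323). chrd was at 0.15 ± 0.13, and it passed without nkd1-/- replicate 1 (0.31, adjusted p = 0.034 by edgeR).

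The average of TL and Tu served as control for the double mutant, since it descends from both lines. chrd rose and noto fell in the same embryos, and gsc did not pass the test; 19.7% of all genes tested were called higher and 17.7% lower. chrd was 1.32-fold higher (log2 fold change 0.40 ± 0.11 (SE), adjusted p = 0.00775 by edgeR), and its samples lay above all 6 samples of the strains. noto was at 0.827 of the mean of the strains (-0.27 ± 0.09, adjusted p = 0.0237 by edgeR), below all 6 in CPM but not with TMM-scaled library sizes. gsc was at 0.15 ± 0.09, with a 95% interval from -0.05 to 0.34 (adjusted p = 0.224 by edgeR). The values differed with the control and with single samples. Against TL alone chrd was at 0.50 ± 0.13 (adjusted p = 0.00594 by edgeR) and noto at -0.088 ± 0.10 (0.54), and against Tu alone chrd was at 0.31 ± 0.13 (0.0691) and noto at -0.46 ± 0.10 (0.00226). With only the double mutant and Tu fitted, chrd passed the threshold (0.32, adjusted p = 0.0222 by edgeR). The call of chrd was lost without double mutant replicate 2 (0.33, adjusted p = 0.0607 by edgeR). That of noto was lost without double mutant replicate 1 (-0.27, 0.0633), 2 (-0.25, 0.0929) or 3 (-0.30, 0.0524), and without TL replicate 3 (-0.26, 0.0512).

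The series asks which single mutant the double mutant resembles. noto was lower in the double mutant than in axin2-/- (log2 fold change -0.36 ± 0.10 (SE), adjusted p = 0.0101 by edgeR), with no overlap between the samples, where 19.0% of all genes tested were called higher and 19.5% lower. This call held in all 6 fits that left out a sample, between -0.43 and -0.33. chrd and gsc did not pass the test there, at 0.07 with a 95% interval from -0.20 to 0.33 and at -0.09 with one from -0.31 to 0.14. Against nkd1-/-, where 11.5% of all genes tested were called, none of the 3 genes passed the test. chrd was at 0.35 ± 0.13 (adjusted p = 0.0884 by edgeR), with every double mutant sample above every nkd1-/- sample. noto was at 0.18 ± 0.10 (adjusted p = 0.283 by edgeR), also without overlap, and gsc was at -0.04 with a 95% interval from -0.26 to 0.19. The difference between those 2 comparisons is that between the single mutants, which differ in strain as well as in genotype. They differed in noto by 0.55 ± 0.10 (axin2-/- over nkd1-/-, adjusted p = 0.000518 by edgeR). In chrd they differed by 0.28 ± 0.13 (0.0914), which passed the threshold without nkd1-/- replicate 3 (0.38, adjusted p = 0.0482 by edgeR).

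The strains themselves differed in noto, which was lower in TL than in Tu (log2 fold change -0.37 ± 0.10 (SE), adjusted p = 0.0109 by edgeR), without overlap; 15.7% of all genes tested were called lower there. This call was lost without TL replicate 1 (-0.30, adjusted p = 0.0631 by edgeR). chrd was at -0.19 ± 0.13 (0.271) and gsc at -0.16 ± 0.11 (0.267), neither past the test. The effect in the double mutant was also compared with the sum of the single mutant effects. In none of the 3 genes did the departure from that sum pass the test, while 19.7% of all genes tested did. It was 0.01 in chrd, with a 95% interval from -0.34 to 0.36, -0.27 in gsc, from -0.57 to 0.02 (adjusted p = 0.19 by edgeR), and 0.09 in noto, from -0.19 to 0.38.

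**Figure D2:**
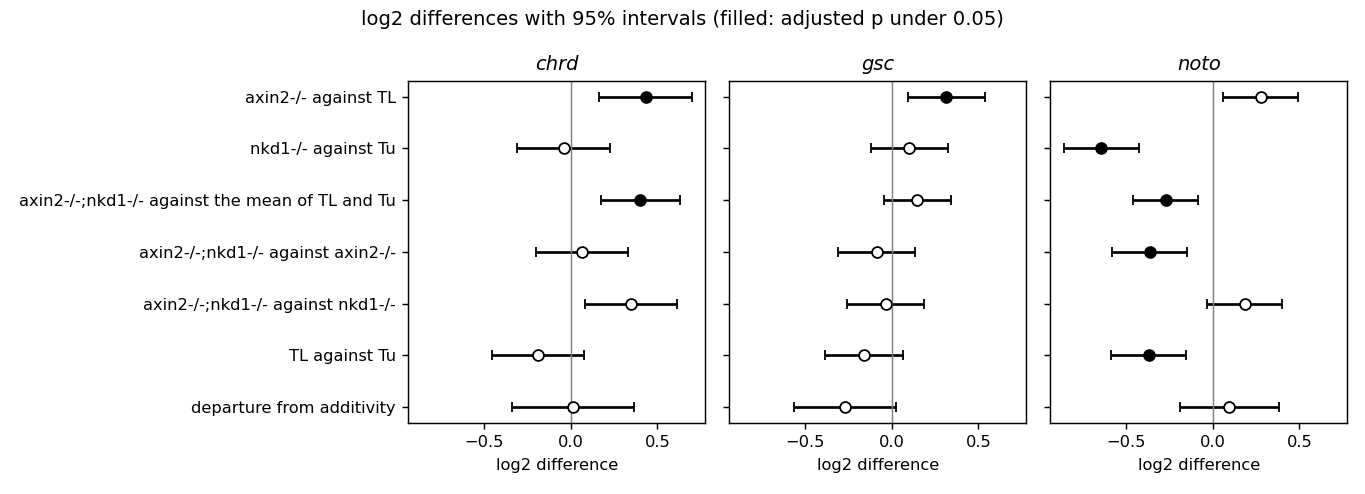
Log2 differences (horizontal axes) of chrd, gsc and noto in 7 comparisons (rows) with 95% intervals; filled points have an adjusted p under 0.05. noto has the only filled points below 0, among them nkd1-/- against Tu at -0.64, and chrd has filled points above 0 for axin2-/- against TL at 0.43 and for the double mutant against the averaged strains at 0.40.

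The ratio of 2 genes within a sample does not depend on the scaling of libraries. There were 107, 98.6 and 87.2 gsc counts per 100 noto counts in the double mutant, 75.3, 96.5 and 71.4 in axin2-/-, 111, 113 and 115 in nkd1-/-, 81.9, 81.8 and 71.5 in TL and 70.6, 67.8 and 64.8 in Tu. nkd1-/- samples were thus higher than all others, and the double mutant samples were above both strains and overlapped axin2-/- through its replicate 2. Per 100 chrd counts there were 15, 12.9 and 16.2 noto counts in the double mutant, 21.9, 16 and 22 in axin2-/-, 21.6, 13.9 and 15.2 in nkd1-/-, 21.1, 21.5 and 23.1 in TL and 25.9, 24.2 and 24.7 in Tu. All double mutant samples lay below both strains in this ratio, and Tu lay above every other group. Of nkd1-/-, replicate 1 was within the range of TL, and it was the replicate with the low chrd. gsc per 100 chrd counts was between 12.7 and 16.1 in the double mutant, 15.4 and 16.5 in axin2-/-, 15.7 and 24.1 in nkd1-/-, 16.6 and 17.6 in TL and 16 and 18.3 in Tu, with overlap between each mutant and at least 1 strain. These ratios were not tested.

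**Figure D3:**
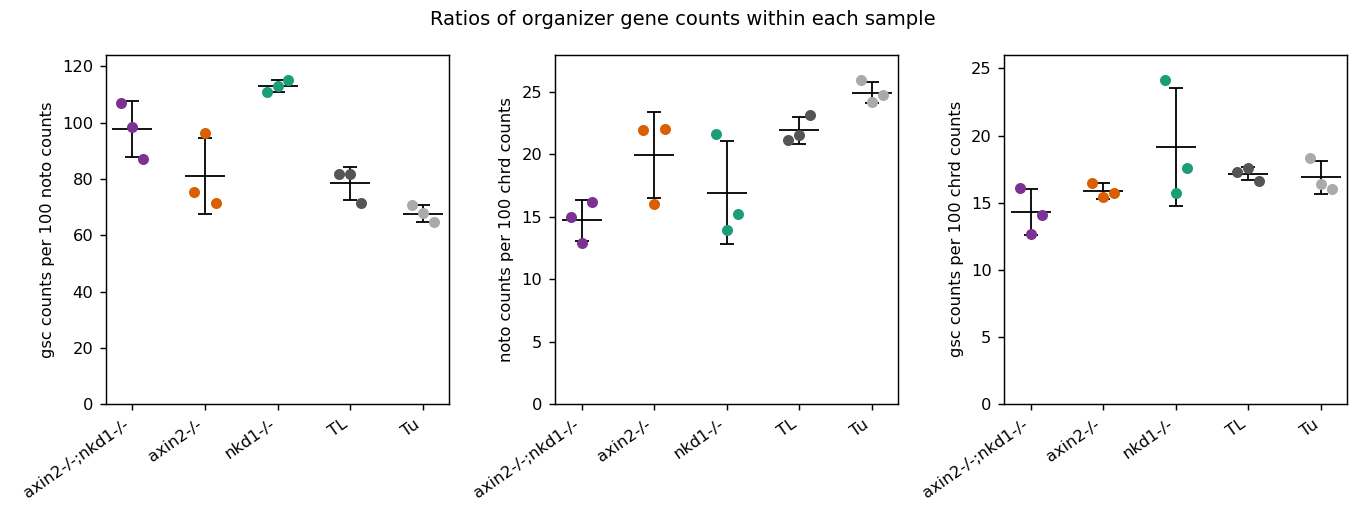
Counts of one organizer gene per 100 counts of another within each sample (vertical axes, from 0) in the 5 groups; points are samples, bars are means and whiskers 1 SD of 3 samples. The gsc to noto ratio is at 111 or more in every nkd1-/- sample and at 81.9 or less in every TL and Tu sample.

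The 3 genes did not share one pattern over the samples. Likeness was measured as the root-mean-square difference of log2 CPM, each gene centred on its own mean, over 15 samples and 14936 other genes with at least 1 CPM on average. chrd differed from gsc by 0.193, the place 146 among its neighbours, and from noto by 0.323, the place 3363. Among the neighbours of gsc, chrd was at place 937. gsc and noto differed by 0.283, which put noto at place 3774 among the neighbours of gsc. As a scale, the SD of log2 CPM over all samples was 0.242 in chrd, 0.137 in gsc and 0.257 in noto. The nearest genes to chrd were WDR26 (0.120) and KMT5B (0.141), those to gsc were si:ch211-126c2.4 (0.0904) and ZMPSTE24 (0.0992), and those to noto were SRP68 (0.101) and r3hcc1l (0.107). Symbols are written as the name table writes them.

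Other organizer and axial mesoderm genes were taken from a list of 27, of which 18 could be matched to 1 ID and tested, 15 of them besides chrd, gsc and noto. Their counts of calls were as follows, and in bulk RNA fewer cells of a type and less RNA per cell cannot be told apart. In axin2-/- against TL, where 10.6% of all genes tested were called in each direction, 2 of the 15 rose and none fell, with a median log2 fold change of 0.15 beside 0.01 over all genes tested. Of the list with chrd and gsc counted, 4 rose, and 1 each without TL replicate 1 or 3 and 2 each without axin2-/- replicate 1 or 2. The other two were fgf17, an FGF ligand (0.62 ± 0.14 (SE)), and dkk1b, a secreted Wnt antagonist of the prechordal plate (0.57 ± 0.19), whose call held only without TL replicate 2 among the 6 fits that left out a sample (0.39 to 0.67, adjusted p up to 0.174). In nkd1-/- against Tu, where 14.4% of all genes were called higher and 14.8% lower, 5 rose and 1 fell, with a median of 0.20 beside 0.00. foxa2, a forkhead factor of axial mesoderm and endoderm that the endoderm list holds as well, rose by 1.25 ± 0.17, to 16.5 ± 2.74 CPM in nkd1-/- (SD, n = 3), against 6.99 ± 0.588 CPM in Tu. frzb, a secreted Wnt antagonist, rose by 0.91 ± 0.23. admp, a BMP-like ligand made in the organizer, fell by 0.66 ± 0.15, about as much as noto did. In the double mutant against the averaged strains, beside 19.7% of all genes higher and 17.7% lower, 5 rose and 2 fell, and with noto counted the 3 that fell became 1 without TL replicate 3 or any 1 of the double mutant samples. foxa2 was higher by 1.36 ± 0.14 and frzb by 1.14 ± 0.19, and tbxta, the T-box factor of mesoderm and notochord, by 0.50 ± 0.12, while sebox was lower by 0.44 ± 0.11 (log2 fold change -0.44). noto therefore fell in nkd1-/- against Tu and in the double mutant against the averaged strains, while foxa2, which axial mesoderm also expresses, rose in both. In the double mutant the call of noto held in 5 of 9 fits that left out a sample and that of foxa2 in 9. Against TL alone noto was at -0.088 there (adjusted p = 0.54 by edgeR). dharma, a direct target of maternal Wnt signalling, was between 2.33 and 3.06 CPM on average in the 5 groups and passed no test in the 7 comparisons.

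The ventral side was followed through 23 genes of the BMP pathway and ventral fates, of which 14 were tested. In axin2-/- against TL, beside 10.6% of all genes tested in each direction, 6 fell and 2 rose, with a median log2 fold change of -0.28 beside 0.01 over all genes tested. szl, the secreted inhibitor of the proteases that cleave Chordin, fell to 19.8 ± 0.849 CPM in axin2-/- (SD, n = 3), against 105.1 ± 24.0 CPM in TL (-2.39 ± 0.27 (SE), adjusted p = 8.07e-06 by edgeR). tll1, which encodes a protease of the tolloid family that cleaves Chordin, fell by 1.44 ± 0.25. It was at 12.47 ± 2.5 CPM in axin2-/- (SD, n = 3), 34.55 ± 7.07 CPM in TL and 19.53 ± 7.45 CPM in Tu. The size of its fall thus depends on the strain taken as control. tll1 was higher in TL than in Tu by 0.78, a call that held in 2 of 6 fits that left out a sample. bmp4, a BMP ligand, fell to 25.99 ± 3.70 CPM in axin2-/-, against 48.7 ± 5.92 CPM in TL. tp63, an epidermal factor, fell by 0.92 ± 0.27, a call lost without TL replicate 1 or 2 or axin2-/- replicate 2 or 3 (-0.90 to -0.82, adjusted p up to 0.0812 by edgeR). chrd itself was higher in that comparison, as given above. Without TL replicate 2 or axin2-/- replicate 2 the 6 that fell became 3, and the 2 that rose became 0 or 1 without any 1 of the samples but axin2-/- replicate 3. In nkd1-/- against Tu, beside 14.8% of all genes lower and 14.4% higher, 2 of the 14 fell and 1 rose, the one that rose becoming 0 or 2 without any 1 sample, and szl fell again (-1.67 ± 0.26), with bmp4 at -0.06 ± 0.14. In the double mutant against the averaged strains, beside 19.7% of all genes higher and 17.7% lower, 4 rose and 3 fell, and the 3 became 1 without double mutant replicate 1 or 3. bmper rose by 1.46 ± 0.19 and id3, a BMP target, by 1.26 ± 0.19. Both were lower in TL than in Tu, so that bmper was at 1.97 against TL alone and at 0.95 against Tu alone, and id3 at 1.97 against TL and at 0.55 against Tu, where it did not pass the test (adjusted p = 0.0697 by edgeR). szl fell by 0.73 ± 0.23, a call lost without double mutant replicate 1 (-0.59, 0.0849) or 3 (-0.66, 0.0783). Against axin2-/-, 8 of the 14 were higher in the double mutant and none was lower, beside 19.0% of all genes higher and 19.5% lower. Among the 8 were szl (1.65 ± 0.26), bmper (1.31 ± 0.23), cdx4 (1.29 ± 0.31) and id3 (1.17 ± 0.23), while chrd was at 0.07 there.

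**Figure D4:**
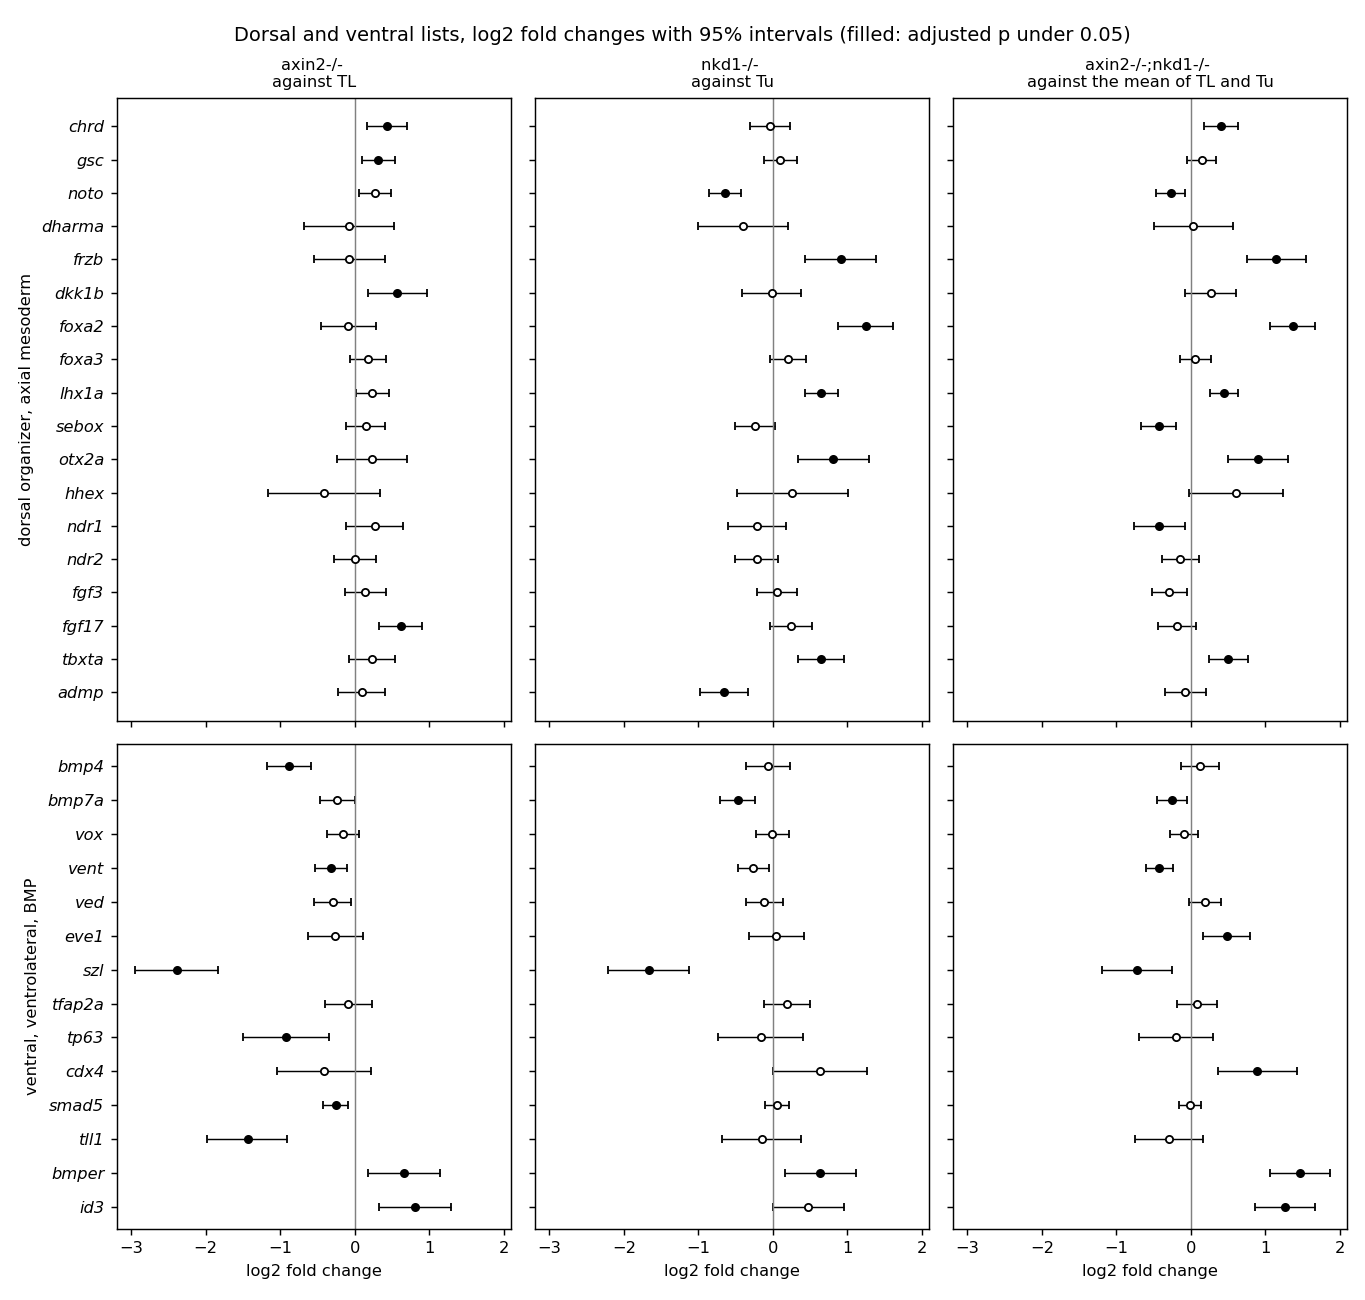
Log2 fold changes with 95% intervals (horizontal axes) of the tested genes of the dorsal list (top) and the ventral list (bottom) in 3 comparisons (columns); filled points have an adjusted p under 0.05. In axin2-/- against TL the filled dorsal points lie above 0 and 6 of the 8 filled ventral points below it, and foxa2 and noto lie on opposite sides of 0 in the other 2 columns.

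Wnt feedback regulators and targets are the genes by which the series reads the pathway. The lists share genes, so a call counted here can also be counted in another list. Of 16 genes of the Wnt list tested, 3 rose and 1 fell in axin2-/- against TL, beside 10.6% of all genes in each direction. The median log2 fold change of the 16 was 0.128 there, beside 0.01 over all genes tested. Among the 3 were the mutated gene axin2, whose call held in 6 of 6 fits that left out a sample, and sp5l. The call of sp5l held in 3 of 6 (0.52 to 1.15). In nkd1-/- against Tu 7 rose and none fell, beside 14.4% of all genes higher and 14.8% lower. The mutated gene nkd1 and axin2 were among these 7. The median log2 fold change of the 16 depended on the strain taken as control. It was 0.415 in nkd1-/- against Tu, 0.109 in nkd1-/- against TL and 0.233 in TL against Tu. Against TL 5 rose in nkd1-/- and none fell, where 35.3% of all genes tested were called. For axin2-/- the median was 0.369 against Tu and 0.128 against TL. Against Tu 6 rose and 1 fell in axin2-/-, where 35.6% of all genes tested were called. In the double mutant against the averaged strains 7 rose and 1 fell, beside 19.7% higher and 17.7% lower, and both mutated genes were among those that rose. In the double mutant, sp5l, a zinc finger factor downstream of Wnt, was higher by 1.78 ± 0.25 and lef1, the nuclear partner of beta-catenin, by 1.54 ± 0.19. In nkd1-/- against Tu they were higher by 1.5 ± 0.30 and 1.74 ± 0.24, where noto was lower and chrd and gsc did not pass the test. Of 8 tested genes of the maternal dorsal Wnt pathway none was called in either single mutant comparison, and in the double mutant 1 was higher and 1 lower. These were tcf7l1b (0.34 ± 0.12), whose call held in 2 of the 9 fits that left out a sample, and ctnnb2 (-0.56 ± 0.21), whose call held in 1 of 9, without double mutant replicate 2 (-0.94). Double mutant samples ranged from 490.8 to 1471 CPM in ctnnb2, against 1392 to 1489 CPM in TL and 1537 to 1581 CPM in Tu, and without double mutant replicate 1 it was at -0.23 (adjusted p = 0.153 by edgeR).

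Markers of other cells of the gastrula were called at shares to be read beside those of all genes, 10.6% in each direction in axin2-/- against TL, 14.4% higher and 14.8% lower in nkd1-/- against Tu and 19.7% higher and 17.7% lower in the double mutant against the averaged strains. Of 10 genes of the enveloping layer, the outer epithelium, 2 rose and 1 fell in nkd1-/- against Tu, none was called in axin2-/- against TL, and 4 rose and 2 fell in the double mutant. In nkd1-/- the fall, of grhl3, held in 0 of 6 fits that left out a sample, and the rises of krt5 and evpla in 5 and 6. In the double mutant the calls of krt5, evpla and grhl3 held in 9 of 9 such fits, that of krt4 in 7, krt92 in 5 and cldne in 3. The summed level of the 10 genes was between 11130 and 11750 CPM in the double mutant, 8775 and 10370 CPM in axin2-/-, 10910 and 13890 CPM in nkd1-/-, 8304 and 10050 CPM in TL and 9696 and 10730 CPM in Tu, so that it was higher in every nkd1-/- sample, where noto was lower, than in every Tu sample. The lowest nkd1-/- sum and the highest Tu sum were close. Of 8 neural plate genes 3 rose and none fell in nkd1-/- against Tu, with sums from 1285 to 1370 CPM in nkd1-/- and from 1237 to 1545 CPM in Tu. Of 6 germ cell genes 3 fell in axin2-/- against TL, with sums from 201.1 to 501.6 CPM in axin2-/- and from 353.8 to 448.3 CPM in TL. In nkd1-/- against Tu 3 of the 6 rose, with sums from 540.6 to 549.7 CPM in nkd1-/- and from 383.7 to 435.0 CPM in Tu. With the other strain as control, 0 of the 6 were called in axin2-/- against Tu and 0 in nkd1-/- against TL. The fall of tdrd7a in axin2-/- against TL held in 2 of 6 fits that left out a sample. So did the rise of dnd1 in nkd1-/- against Tu. ddx4, not called in these single mutant comparisons, ran from 103.5 to 417.9 CPM in axin2-/-, a large part of the sums. The 5 yolk syncytial layer genes summed to between 621.7 and 712.7 CPM in the double mutant, 562.6 and 610.4 CPM in axin2-/-, 531.2 and 702.8 CPM in nkd1-/-, 468.0 and 482.6 CPM in TL and 472.4 and 518.0 CPM in Tu, higher in every mutant sample than in every sample of the strains. The 5 genes did not all rise: mxtx2 was lower in every nkd1-/- and double mutant sample than in every sample of the strains. In axin2-/- against TL 2 of the 5 were called higher, mxtx1 and hnf4a. Of 6 fits that left out a sample, the call of mxtx1 held in 6 and that of hnf4a in 0. The mean of mxtx1 was 167.7 CPM in axin2-/-, 121.8 CPM in TL and 162.3 CPM in Tu, so the size of its rise depends on the strain taken as control. The 6 endoderm genes summed to between 846.7 and 885.3 CPM in the double mutant, 823.8 and 892.8 CPM in axin2-/-, 908.0 and 941.1 CPM in nkd1-/-, 742.0 and 844.4 CPM in TL and 835.0 and 882.6 CPM in Tu. No marker of these lists was at 0 in any sample. The part of these cells in the levels of chrd, gsc and noto was not tested.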

How the data were processed

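The authors deposited raw counts per Ensembl gene ID, whole numbers, 1 column per sample; each column name equals a sample title. GRCz11 and edgeR 3.30.3 are named in the submitters' processing notes. The aligner, the counter and the use of strand are not given in the sources used here, and in the RefSeq gene table, which is of another build, 1 locus overlaps gsc and none overlaps chrd or noto. Symbols came from a reference table that names 29201 of the 32520 IDs. Listed symbols were matched, ignoring case, where exactly 1 ID carried them (101 of 134 entries in 10 lists). The 134 entries hold 120 distinct symbols, so a gene can be counted in more than 1 list.

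Counts were filtered with filterByExpr (minimum count 10, minimum total 15), scaled by TMM and fitted with group as the only factor in edgeR 4.0.16 (R 4.3.3; glmQLFit and glmQLFTest), with Benjamini-Hochberg adjustment over 21614 genes. Standard errors follow from the quasi-likelihood F statistic. The pipeline was tested on simulated data whose set changes were larger than the called differences of chrd, gsc and noto. Recovery of differences as small as theirs was not tested. Replicates differed by more than counting noise (chi-square per degree of freedom at least 13.2). Alternatives were DESeq2 1.42.0, its size factors inside edgeR, a fit with no filter, a replicate block, thinned counts, only the groups compared, either strain as control, and leaving out each sample. From each list, up to 4 called genes of the largest absolute change with at least 1 CPM could be named in a comparison; axin2 and nkd1 are given throughout, and genes named beyond that (dharma, sebox) or without a call were chosen after their values were seen. The genes and lists were chosen with earlier results of these data known.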

Additional observations from a re-analysis of the deposited data

Results flagged for a closer look

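None of chrd, gsc and noto departed from additivity past the threshold, and 2 of the 18 tested dorsal genes and 6 of the 14 ventral genes did, beside 19.7% of all genes tested. In these, by a test of the difference itself, the effect in the double mutant was not the summed effect of both single mutants. Among dorsal genes fgf17 lay below the sum by -1.05 ± 0.18 on the log2 scale (SE, adjusted p = 0.000664 by edgeR) and lhx1a by -0.44 ± 0.14 (0.0354). Among ventral genes szl lay above it by 3.33 ± 0.35 (adjusted p = 7.53e-06 by edgeR), tll1 by 1.30 ± 0.34 (0.0118), bmp4 by 1.06 ± 0.19 (0.000867) and eve1 by 0.70 ± 0.23 (0.0443), and ved and bmp7a passed as well. Over 15 fits that left out 1 sample each, between 1 and 4 dorsal genes and between 4 and 7 ventral genes passed. The call of lhx1a held in 6 of them (-0.51 to -0.37) and that of eve1 in 4 (0.59 to 0.82). That of bmp7a held in 5 (0.32 to 0.52) and that of ved in 15. Genotype and family coincide in this design and cannot be told apart.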

How the results depend on the processing

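The 21 log2 differences (3 genes in 7 comparisons) kept their direction wherever they were called. Most of the 21 were not called, and many of these lay far from the threshold. Of 129 values from alternatives other than leaving out a sample, 123 kept their side of the threshold, and the cause of the other 6 was not tested. noto in axin2-/- against TL passed it with DESeq2 (0.27, adjusted p = 0.0334). gsc in axin2-/- against TL missed it with no filter (0.31, 0.0927 by edgeR) and with only the groups compared (0.31, 0.0739). With the replicate number as a block chrd passed it in the double mutant against nkd1-/- (0.36, adjusted p = 0.0342 by edgeR), as it did between axin2-/- and nkd1-/- (0.29, 0.0371) and between the double mutant and Tu (0.31, 0.0303). Against TL alone noto in the double mutant was at -0.088, and against Tu alone chrd was at 0.31, both past the threshold no longer. For the pairing by replicate number, samples of equal number had deviations that correlated by 0.021 in the mean (30 pairs, lowest -0.068, highest 0.14). Samples of unequal number correlated by -0.011 in the mean (60 pairs). The deviations within a group cancel out, so that mean follows from the one for equal numbers and is no separate reference. The labels do not say that a number marks a shared day, so the numbers were not taken as pairs. These correlations run over all genes tested, not over chrd, gsc or noto alone. In CPM, chrd was highest in replicate 2 in every group but nkd1-/-. With TMM-scaled library sizes Tu replicate 3, at 280.3 CPM, lay above Tu replicate 2, at 274.1 CPM. Leaving out single samples, 147 of 162 values kept their side of the threshold. The calls of chrd and gsc in axin2-/- against TL held in 3 and 1 of 6 fits. In that comparison chrd and gsc ranged from 0.34 to 0.47 and from 0.24 to 0.36, and noto from 0.21 to 0.34. For the double mutant against the averaged strains chrd ranged from 0.33 to 0.45 and noto from -0.30 to -0.25, and noto in TL against Tu from -0.40 to -0.30. The count of all genes called between the double mutant and nkd1-/- was 2496, and from 1444 to 2738 over these fits (1558 without nkd1-/- replicate 3, and 1563 and 1444 without double mutant replicates 2 and 3). This count, the list counts and the list genes were recomputed as alternatives chosen after seeing the data. The TMM library size moved every group mean CPM of the 3 genes by less than 1 SD. Replicate spread exceeded counting error for each gene and group except noto in Tu.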

Other observations

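mxtx2, a homeobox gene of the yolk syncytial layer, had group means spread more widely than those of chrd, gsc and noto. Its means were 13.6 ± 4.57 CPM for the double mutant (SD, n = 3), 20.3 ± 2.84 CPM in nkd1-/-, 71.8 ± 6.28 CPM in axin2-/-, 55.3 ± 0.913 CPM in TL and 46.3 ± 5.52 CPM in Tu. It fell in nkd1-/- against Tu (log2 fold change -1.20 ± 0.17 (SE)) and for the double mutant against the averaged strains (-1.86 ± 0.16), the comparisons in which noto fell. The counts that follow stand beside 14.4% of all genes higher and 14.8% lower in nkd1-/- against Tu. For the double mutant against the averaged strains the shares were 19.7% higher and 17.7% lower. Of 5 genes of that layer 2 rose and 1 fell in nkd1-/- against Tu, and 3 rose and 1 fell in the double mutant. Of 6 endoderm genes 2 rose and none fell in nkd1-/-, and 3 rose and 1 fell in the double mutant, where sox17 was higher by 1.26 ± 0.25 and sox32 by 0.64 ± 0.17.

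Of 10 genes of the Nodal pathway, which also maintains organizer genes, 2 rose and none fell in axin2-/- against TL (10.6% of all genes in each direction), 2 rose and 4 fell in nkd1-/- against Tu (14.4% higher, 14.8% lower), and 3 rose and 3 fell in the double mutant (19.7% higher, 17.7% lower). In TL against Tu 4 were lower and none higher (31.1% of all genes called). In nkd1-/- against TL 3 rose and 1 fell (35.3% called). Of the 4 that fell in nkd1-/- against Tu, the calls of tdgf1 and gdf3 held in 6 of 6 fits that left out a sample. That of foxh1 held in 4 and that of lft2 in 2. The rise of lft1 there held in 1 of 6. In axin2-/- against TL the rises of lft1 and tdgf1 held in 3 and 1 of 6. The fall of gdf3 in nkd1-/- depends on the strain taken as control. Its mean was 143.2 CPM in nkd1-/-, 252.9 CPM in Tu and 107.4 CPM in TL. In TL against Tu gdf3 was at -1.28, a call that held in 6 of 6 such fits. tdgf1, the Nodal co-receptor, was lower in nkd1-/- (-0.54 ± 0.08) and in the double mutant (-0.40 ± 0.07), though against TL alone the double mutant was at -0.21 ± 0.08 (adjusted p = 0.0651 by edgeR), and it was also lower in TL than in Tu (-0.39 ± 0.08), as noto was.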
